A study of Drosophila melanogaster with 12 samples.

Results

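Nuclear and cytoplasmic mRNA levels were compared in D. mel-2 cells, a cultured fruit fly line, that had been depleted of U2AF50 by RNA interference. U2AF50 is the larger of the proteins that make up the splicing factor U2AF. The comparison used the 6 arrays titled as nuclear or cytoplasmic RNA of the U2AF50-treated cells, 3 per fraction, out of 12 arrays in the series. Both fractions of these cells were made by hypotonic lysis and total RNA was hybridised. The other 6 arrays held the same fractions, 3 each, of cells given a non-specific RNA interference, and served as control cells. All cells in the 4 groups had thus received double-stranded RNA, and the labels name no strain, age, dose or duration. The labels do not state whether the replicates were separate cultures, and the p-values therefore reflect only how far these arrays vary, which could be technical variation.

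As background, U2AF recognises the 3' end of introns at an early step of splicing, and spliced mRNA is then exported through the nuclear pore. In the cytoplasm, mRNAs of most cytosolic, nuclear and mitochondrial proteins are translated on free ribosomes. Those of secreted, lumenal and most membrane proteins are carried by the signal recognition particle to ribosomes on the endoplasmic reticulum (ER), whose membrane is continuous with the outer membrane of the nucleus. Proteins held by a single anchor at their C-terminal end are inserted into the ER after translation has ended. How much ER either fraction held was not measured.

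Each array gave 1 fluorescence intensity for each of 13966 probe sets that are not controls, with a gene represented by 1 or a few probe sets. Differences are given as log2 of the nuclear over the cytoplasmic level on the scale log2(intensity + 94.7), which understates those of dim probe sets. Each comes with the standard error of limma (n = 3 arrays per fraction). That error draws on the spread within all 4 groups, control cells included, and not on the depleted fractions alone. Intensities of single arrays are quoted as deposited, while overlap between fractions was judged after normalisation. A probe set was tested if its mean over all 12 arrays passed a brightness filter, which 8379 did, and was called at a limma adjusted p under 0.05. Every level is relative to the total signal of its own array, so a larger share of an RNA in a fraction and a smaller amount of the other RNAs there cannot be told apart.

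The nuclear arrays of depleted cells were the most variable of the 4 groups, with a median SD of 0.42 over their 3 arrays, and the cytoplasmic arrays the least variable at 0.2. The RNA control probe sets also separated the fractions. The 3' to 5' signal ratio of GAPDH was 8.32, 6.04 and 4.2 on the nuclear arrays and 2.71, 3.63 and 2.36 on the cytoplasmic arrays. Those of actin and eIF-4a, the 18S rRNA probe set, the hybridisation controls and the array median also did not overlap between fractions. With 3 arrays against 3, the exact 2-sided permutation test cannot give a p below 0.1, which all 6 measures reached (adjusted p = 0.1). Within depleted cells these measures cannot be told apart from the fraction. With the GAPDH ratio as a term in the fit, 1170 probe sets were called higher and 1611 lower.

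**Figure D1:**
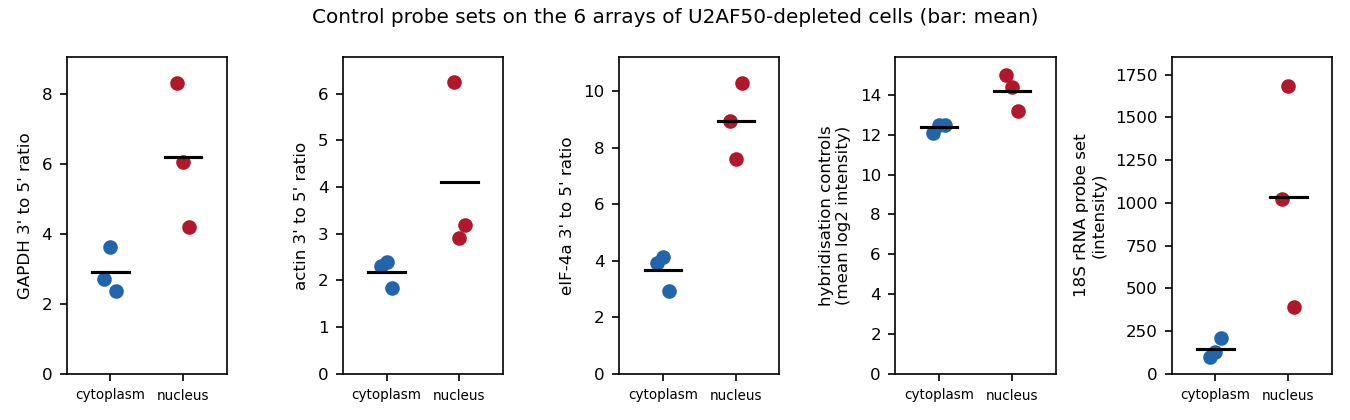
Control measures on the 3 cytoplasmic and 3 nuclear arrays of U2AF50-depleted cells: 3' to 5' ratios (no unit), the mean log2 intensity of the hybridisation controls and the intensity of an 18S rRNA probe set. Points are arrays and bars are means, and in each panel all 3 nuclear arrays lie above all 3 cytoplasmic arrays.

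The targeted gene served as the first check. U2af50 gave intensities of 1030, 1327 and 1143 in the cytoplasm and 2718, 1738 and 1678 in the nucleus of depleted cells. In control cells they were 2474, 5606 and 4751 in the cytoplasm and 1701, 1710 and 1589 in the nucleus. All 3 depleted cytoplasmic values therefore lay below all 3 control cytoplasmic values, whereas the depleted nuclear values did not lie below those of the control nucleus. Within depleted cells U2af50 mRNA was higher in the nucleus by 0.78 (SE 0.26, adjusted p = 0.0196), and the fractions did not overlap. This call was lost in 5 of 24 alternatives, among them those without nuclear array 1 (0.55), without cytoplasmic array 1 (0.7) and without cytoplasmic array 3 (0.76). The mRNA of its partner in U2AF, U2af38, lay the other way, with 4602, 3919 and 4576 in the cytoplasm against 2609, 1908 and 2151 in the nucleus (-0.86, SE 0.2, adjusted p = 0.0019).

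The labels name no cell type beyond the line, and fixed marker genes of blood cells and of other cell types were looked up. Of 11 plasmatocyte markers on the array, 10 were tested, among them eater, a phagocytic receptor (260 to 343 in the cytoplasm, 4773 to 6468 in the nucleus). The mRNA of Nplp2 was abundant in both fractions, at 12694 to 17059 and 65911 to 71897, while the phagocytic receptor gene NimC1 stayed at or below 88 on all 6 arrays. The neuronal gene elav ranged from 202 to 518 and did not pass the brightness filter, and neither did the germline gene vas. The fat body genes Lsp2 and Fbp1 and the epithelial genes Nrx-IV and sdt did pass it. The filter thus did not set blood-cell markers apart, and the cell type was not tested. The germline genes aub and osk were tested and went opposite ways, aub lower in the nucleus (-0.98, SE 0.29, adjusted p = 0.0101) and osk higher (1.68, SE 0.28, adjusted p = 1.01e-04). The call of aub was lost without nuclear array 2 and with the GAPDH ratio in the fit.

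Between the fractions of depleted cells, 1503 of 8379 probe sets were higher in the nucleus (17.9%), 2585 were lower (30.9%) and 4291 passed in neither direction. The 2 sides differed in shape. The probe sets called higher had a median difference of 1.83, with 653 at or above 2, 246 at or above 3 and 50 at or above 4. Those called lower had a median of -1.31, with 234 at or below -2, 6 at or below -3 and 0 beyond -4. Nuclear excess was thus found for fewer mRNAs and reached larger sizes than cytoplasmic excess. Counted once per gene, through its brightest probe set, 1250 of 6868 genes were higher (18.2%), 2173 were lower (31.6%), and the median over all genes was -0.31. These shares are the background for each gene group below, in which no group was tested as such.

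The largest nuclear excess was that of secreted, lysosomal and ER proteins. Glt, a basement membrane glycoprotein, gave 51816, 40192 and 42888 in the nucleus and 698, 584 and 1002 in the cytoplasm, a 53.2-fold excess (log2 5.73, SE 0.3, adjusted p = 6.55e-11). Gp150, a transmembrane glycoprotein with leucine-rich repeats, gave 19064, 15956 and 18821 against 362, 380 and 338 (33.9-fold). For both genes the lowest nuclear array lay more than an order of magnitude above the highest cytoplasmic array. O-fut1, the ER enzyme that puts fucose on Notch, gave 18800, 18186 and 17931 against 434, 433 and 481 (29.5-fold, log2 4.88, SE 0.16). LanB1, a laminin chain of the basement membrane, gave 15940, 12979 and 14125 against 352, 412 and 309 (28-fold).

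These 4 belong to the 15 genes with the largest nuclear excess among those brighter than the median tested probe set and without overlap. The other 11 lay between 4.58 and 5.17, and included the lysosomal proteins cathD (4.67, SE 0.17), CtsK1 (4.62), Lamp1 (4.6) and Sap-r (4.58), of which Sap-r had a further probe set at 2.6. Of the ER lumen came the disulfide isomerase family members CaBP1 (4.66, SE 0.14) and ERp60 (4.64). The growth factor Idgf2 (4.61) and the chemokine-like protein orion (4.68) are secreted. CG2493 (5.17), CG1637 (4.73) and CG31705 (4.62) are given by their annotation number only.

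On the cytoplasmic side the leading genes were smaller in size and belonged largely to the mitochondrion or had annotation numbers only. ND-PDSW, a subunit of respiratory complex I, gave 342, 255 and 91 in the nucleus against 2596, 2630 and 2760 in the cytoplasm (9.64-fold lower, log2 -3.27, SE 0.37, adjusted p = 1.12e-06). Argk1, the arginine kinase that buffers ATP, gave 3021, 3396 and 3237 against 19304, 22042 and 19849 (6.53-fold lower, log2 -2.71, SE 0.13). Its values are well above the offset, and a second, dimmer probe set of Argk1 was at -0.79 and not called. The proteins of the mitochondrial ribosome mRpS24 (-2.92) and mRpL15 (-2.67), the calcium uniporter regulator EMRE (-2.72) and Sirup (-2.69), which helps to assemble succinate dehydrogenase, were also among the 15 with the largest cytoplasmic excess under the same brightness limit. Dimmer genes outside it, such as MED28 (-3.15) and Mcm10 (-2.85), exceeded several of them. GstE7 (-2.79), a glutathione transferase, and fal (-2.57) joined them. The other 7 were CG9175 (-3.55), CG1236 (-3.22), CG10341 (-2.93), CG12279 (-2.79), CG11523 (-2.68), CG17931 (-2.59) and CG14722 (-2.56). All 30 genes kept their call in each of 24 alternatives.

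**Figure D2:**
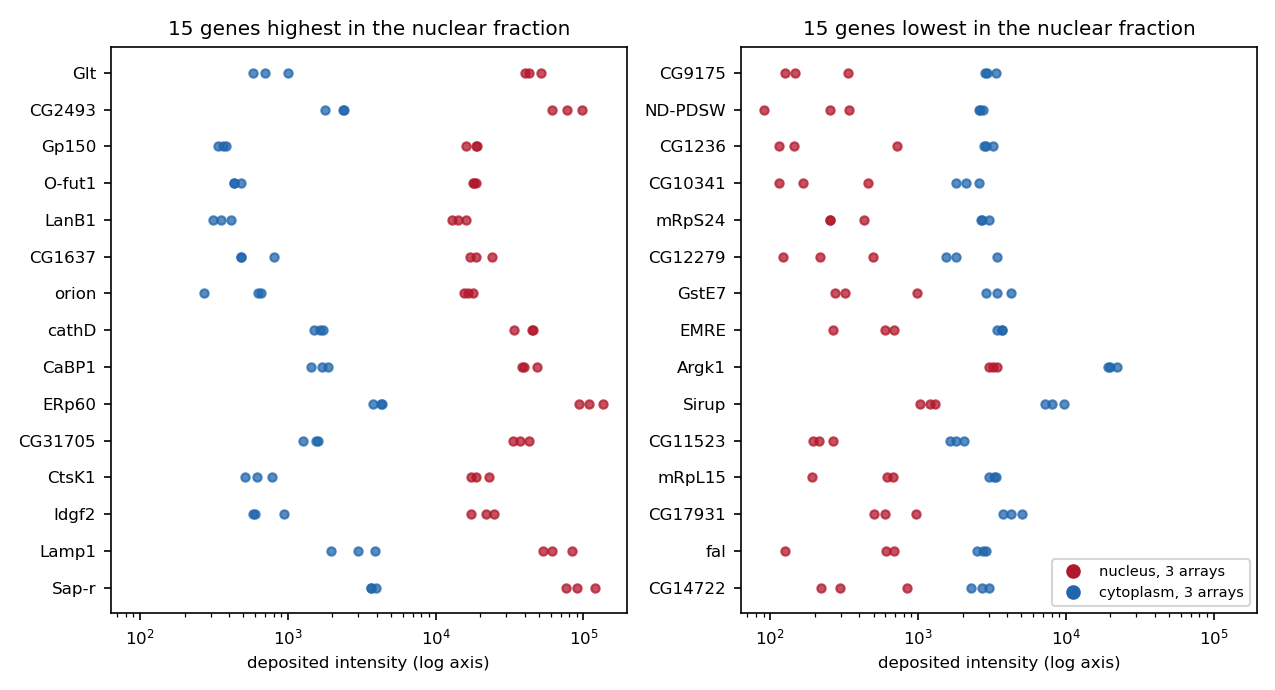
Deposited intensity (log axis) on the 3 nuclear and 3 cytoplasmic arrays of depleted cells for the 15 genes with the largest difference in each direction among those brighter than the median tested probe set and without overlap. By that choice the fractions do not overlap for any of the 30 genes, and Glt runs from 584 to 1002 in the cytoplasm and from 40192 to 51816 in the nucleus.

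Chaperones of the ER lumen and of the cytosol fell on opposite sides without exception among those tested. All 15 tested ER chaperones and disulfide isomerases were higher in the nucleus (0 lower, median 3.11), and all 25 tested cytosolic chaperones were lower (0 higher, median -1.44). In every alternative 14 of the 15 and 22 of the 25 calls held, and that of the cytosolic DnaJ-1 (-0.44) was lost in 9 of 24. Gp93, the ER member of the Hsp90 family, gave 47361, 60221 and 43452 in the nucleus against 5788, 3600 and 5472 (3.43, SE 0.19). The lectin chaperone Cnx99A was at 3.03 and the disulfide isomerase Pdi at 2.87. The ER Hsp70 Hsc70-3 was the lowest of its group at 0.83 (SE 0.21), with 5602, 8284 and 6830 against 3652, 4359 and 4778. Its call was lost when arrays were centred on their medians (0.3 there) and with the GAPDH ratio in the fit.

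Among the cytosolic chaperones, Sgt1, a co-chaperone of Hsp90, had the largest cytoplasmic excess (-2.71, SE 0.38), with 399, 160 and 287 in the nucleus against 2009, 2106 and 2295. The prefoldin subunits Pfdn6 (-2.37) and Pfdn2 (-2.12) and the Hsp90 co-chaperone p23 (-2.06) followed. The chaperonin ring subunits CCT3 (-0.87), CCT5 (-1.2), CCT8 (-1.26) and CCT7 (-1.7) were all lower in the nucleus. For none of these genes did the arrays overlap. The 5 tested chaperones of the mitochondrion were less uniform, with 3 lower, 0 higher and a median of -0.47. Of these 3 lower calls 1 held in every alternative. Hsc70-5, the Hsp70 of the matrix, was at -0.13 (SE 0.2) and did not pass.

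**Figure D3:**
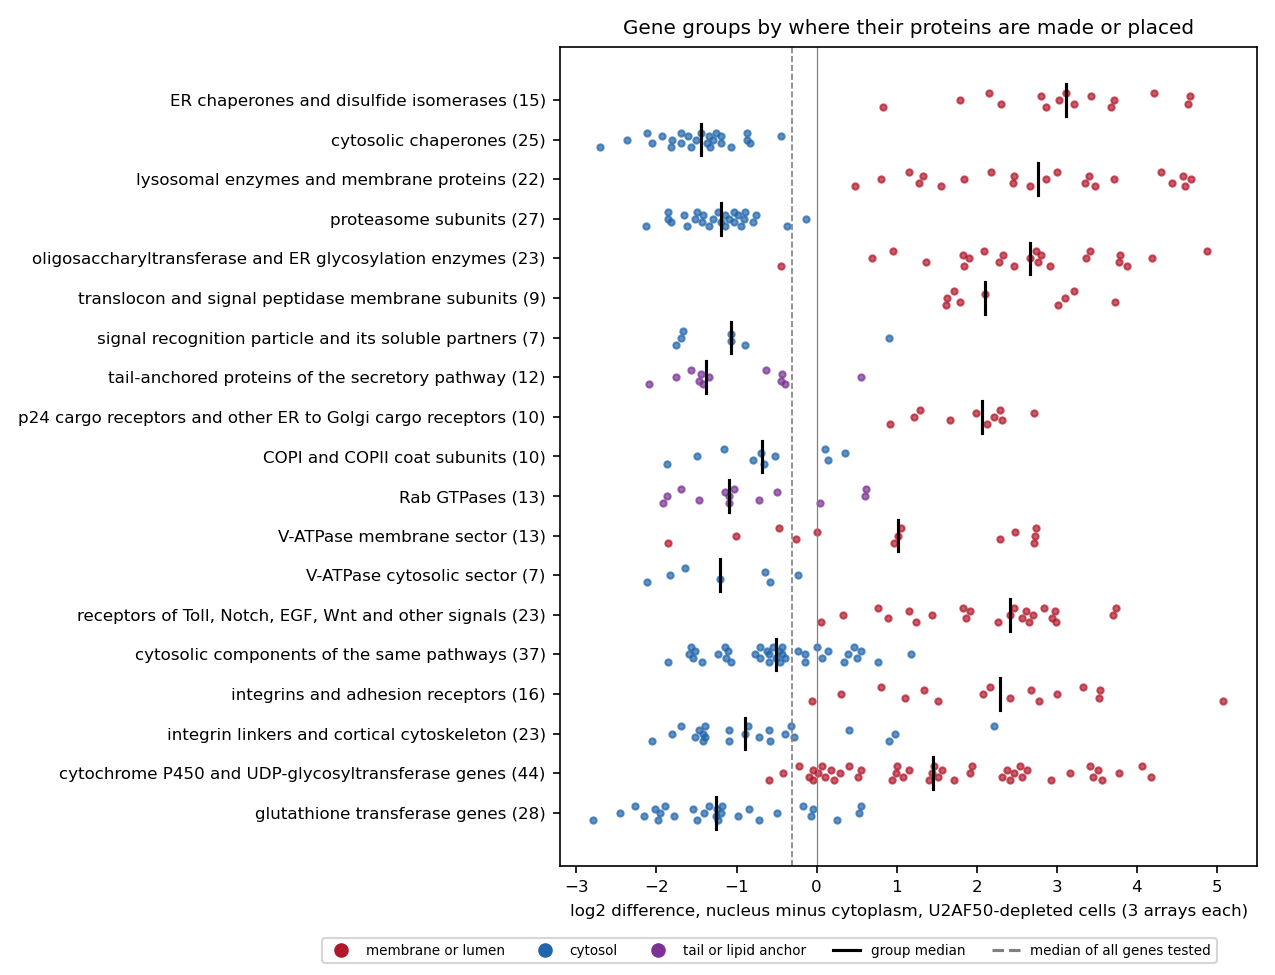
Log2 difference of nucleus minus cytoplasm in depleted cells for every tested member (point) of 19 gene groups, with the number tested in brackets, a bar for each group median and a dashed line for the median of all 6868 genes. Groups of lumenal and membrane proteins lie right of 0 with medians from 1.02 to 3.11, and their cytosolic partners left of it.

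The 2 machineries of protein breakdown separated in the same way. Of 22 tested lysosomal enzymes and membrane proteins, 20 were higher in the nucleus and 0 lower (median 2.77). Of 27 proteasome subunits, 25 were lower and 0 higher (median -1.19). The cysteine protease CtsL1 gave 156591, 109164 and 95861 in the nucleus against 5028, 4798 and 5154 (4.44, SE 0.13), and CtsF was at 4.3. Hexo2, a hexosaminidase, was at 3.4 and Npc2a, a sterol carrier of the lysosome, at 1.84. On the other side stood the deubiquitinase Rpn11 of the proteasome lid (-2.13, SE 0.24) and the catalytic subunit Prosbeta5 (-1.85). Rpn3 (-0.13) and Rpt3R (-0.76) were the proteasome members not called.

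The genes of ER entry divided by the kind of protein they encode. All 9 tested membrane subunits of the translocon and the signal peptidase were higher in the nucleus (median 2.1). Sec61alpha, which forms the channel, gave 33546, 31548 and 31638 in the nucleus against 4316, 2847 and 4782 in the cytoplasm (3.01, SE 0.17, adjusted p = 2.78e-10). Its partners in the same trimer, which are single-anchor proteins inserted by their tails, lay on the other side. Sec61beta gave 5002, 6133 and 8039 against 21716, 21806 and 17362 (-1.76, SE 0.14), and Sec61gamma 1152, 1146 and 1905 against 5583, 6576 and 6901 (-2.09, SE 0.2). The 3 subunits of this complex thus lay on both sides of 0 and for none of them did the fractions overlap. Sec63, a co-chaperone of the channel, was at 3.73 and the signal peptidase subunit Spase22-23 at 3.21.

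Across the 12 tested tail-anchored proteins of the secretory pathway, 0 were higher, 7 lower and the median was -1.39. They included the vesicle fusion proteins Sec22 (-1.47), Syb (-1.35) and Ykt6 (-1.42), the last held by lipid rather than a tail, and cytochrome Cyt-b5 (-1.57). Vti1b (0.55, SE 0.58) and Sec20 (-0.39) were not called. Of the soluble particle that targets proteins to the ER, all 6 tested subunits were lower, from Srp72 at -0.89 to Srp9 at -1.76. Its receptor subunit SrpRalpha was the exception, at 3629, 4018 and 3481 in the nucleus against 2020, 2125 and 2447 (0.9, SE 0.18, adjusted p = 5.33e-04). A second probe set of SrpRalpha was at 0.61 and not called, and the call of the first was lost when arrays were centred on their medians (0.36).

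Enzymes that add and trim sugars, a list that took in the mucin-type Pgant transferases, were higher in 22 of 23 tested genes and lower in 0 (median 2.66). The catalytic oligosaccharyltransferase subunit Stt3B gave 69342, 51627 and 59409 against 3463, 3501 and 3607 (4.19, SE 0.12), with Ostgamma at 3.88 and OstDelta at 3.41. The folding sensor Uggt was at 3.78. Dad1, a small subunit of the same transferase, had a difference of only 0.69 (SE 0.17), and its call was lost with the GAPDH ratio in the fit. Pgant4, a mucin-type glycosyltransferase, was dim and not called (-0.44, SE 0.5). Lipid synthesis enzymes of the ER membrane were higher in 18 of 22 and lower in 0 (median 1.86), led by Gpat4 (3.47), Agpat3 (3.41) and lace (3.34), a subunit of serine palmitoyltransferase. The ethanolamine kinase eas, a soluble enzyme on that list, was at -1.23 (SE 0.54) and not called.

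The vacuolar proton pump, whose membrane sector carries protons and whose cytosolic sector splits ATP, showed the same division within 1 complex. In the membrane sector 7 of 13 tested genes were higher and 1 lower (median 1.02), and in the cytosolic sector 0 of 7 were higher and 6 lower (median -1.21). Vha100-1, a multispanning subunit, gave 10982, 12988 and 11135 in the nucleus against 1686, 1738 and 1981 (2.74, SE 0.21). Vha55, a subunit of the ATP-splitting ring, gave 1557, 2498 and 2820 against 10953, 8296 and 12765 (-2.12, SE 0.25). The accessory proteins VhaAC45 (2.72) and ATP6AP2 (2.48) lay with Vha100-1, and Vha13 (-1.83) and Vha14-1 (-1.64) with Vha55. The 1 member of the membrane sector that was lower was VhaAC39-1 (-1.85, SE 0.17), a subunit that attaches to that sector without spanning the membrane. Vha16-1, a small proteolipid, was higher by 1.02, while VhaM9.7-b (-0.26) and the cytosolic Vha26 (-0.23) did not pass. The median of the membrane sector ranged from 0.39 to 2.29 over all alternatives.

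**Figure D4:**
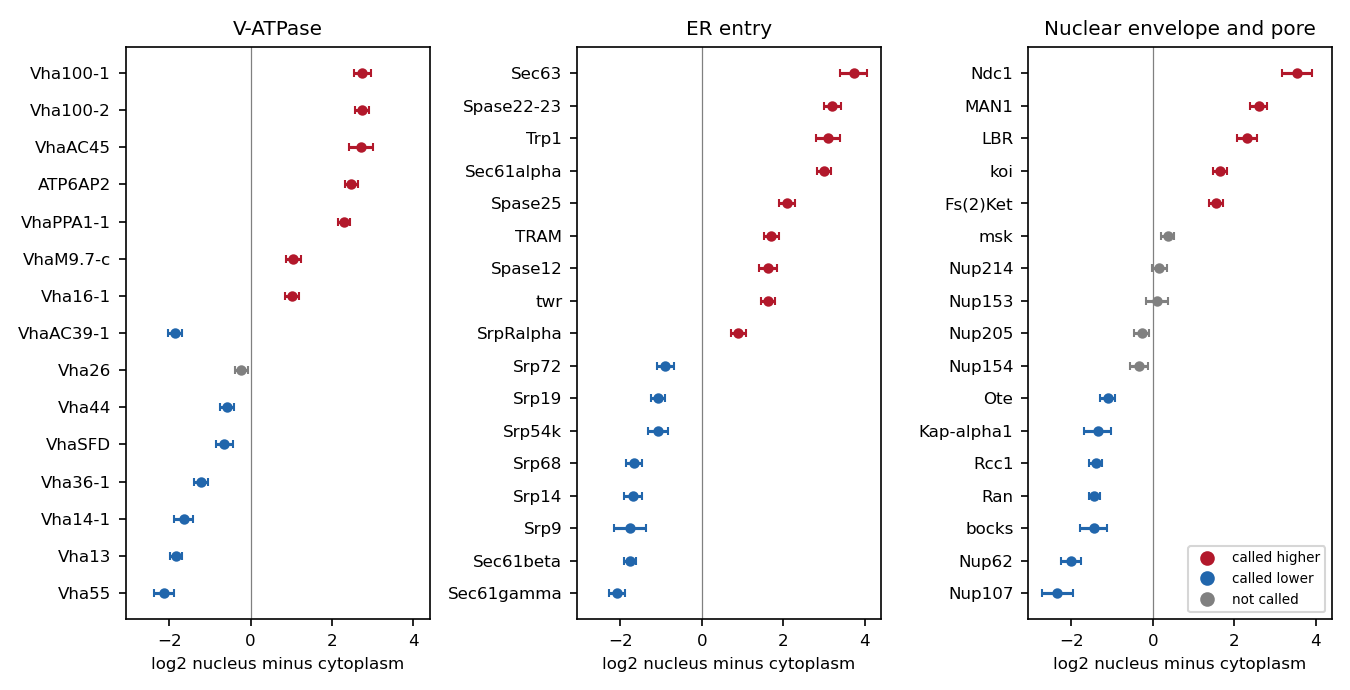
Log2 difference of nucleus minus cytoplasm (points) with limma standard errors (bars) in depleted cells for subunits of the V-ATPase, the ER entry machinery, and the nuclear envelope, pore and transport factors. Selected subunits are shown, coloured by their call. Within each panel called genes lie on both sides of 0, such as Sec61alpha at 3.01 and Sec61gamma at -2.09.

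Cargo receptors and coats of the vesicles between ER and Golgi gave a further contrast. All 10 tested p24 and other cargo receptors were higher (median 2.06), led by ergic53 (2.71, SE 0.2) and loj (2.32), with KdelR, which returns ER proteins from the Golgi, at 2.21. Of 10 coat subunits 0 were higher and 6 lower (median -0.68). Sec13, which belongs both to this coat and to the nuclear pore, gave 4310, 4778 and 5026 against 16393, 18833 and 15534 (-1.87, SE 0.14). Among 13 tested Rab GTPases, which reach membranes by a lipid tail, 7 were lower and 1 higher (median -1.09). Rab2, of the ER to Golgi route, was at -1.92 and Rab18 at -1.69. The exception Rab27 was at 0.6 (SE 0.24), a call lost in 12 of 24 alternatives, while 5 of the 7 lower calls held in every one.

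Membrane components of signalling pathways were mostly higher in the nucleus, while the share of cytosolic components called lower was near that of all genes. Of 23 tested receptors and other membrane proteins of the Toll, Notch, EGF, Wnt and related pathways, 19 were higher in the nucleus and 0 lower (median 2.42). Of 37 tested cytosolic components, 1 was higher and 12 lower (median -0.51), a cytoplasmic share close to the 31.6% of all genes. The cytokine receptor dome gave 5545, 4365 and 4717 against 162, 340 and 302 (3.7, SE 0.28), and the Toll receptor Tl 2577, 1732 and 2696 against 186, 104 and 268 (2.94, SE 0.41). Downstream of Tl, the adaptor tub was lower in the nucleus (-1.59, SE 0.21), as was the NF-kappaB protein Rel of the related immune pathway (-1.43). The JNK kinase bsk was at -1.86 and the adaptor drk at -1.54. Pdk1, a kinase of insulin signalling, was the 1 cytosolic member called higher, with 1748, 1340 and 2322 against 602, 583 and 896 (1.18, SE 0.31, adjusted p = 0.0041), and its second probe set was at 1.3. Of the receptors, robo1 (1.15), Ret (0.77), Toll-7 (0.33) and PGRP-LE (0.06) were not called, and arrays of all 4 overlapped. PGRP-LE is itself a peptidoglycan sensor without a membrane anchor.

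Adhesion receptors and their linkers behaved likewise, with exceptions among the linkers. Integrins and other adhesion receptors were higher in 13 of 16 and lower in 0 (median 2.29), including the beta integrin mys (13954, 12756 and 21944 against 1706, 1473 and 1493, difference 3.33, SE 0.17) and the dystroglycan Dg (3.54). The linkers and cortical cytoskeleton had 14 of 23 lower and 3 higher (median -0.89). The actin regulators Arpc2 (-2.06), cpb (-1.81) and chic (-1.52) were among the lower ones. The heavy spectrin kst was higher, at 5980, 5147 and 7577 against 1526, 1115 and 1515 (2.22, SE 0.23, adjusted p = 4.45e-07), and kept its call in all 24 alternatives. The filamin cher was higher by 0.91 (SE 0.16), a call lost when arrays were centred on their medians, and Fak by 0.98, a call lost in 10 of 24 alternatives. Of the 14 lower calls 11 held in every one.

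The remaining products of the secretory route were mostly higher in the nucleus. Secreted and matrix proteins were higher in 30 of 41 tested genes and lower in 0 (median 2.1), among them the matrix protease Mmp2 (4.54, SE 0.35), the laminin chain LanB2 (4.01) and the matrix protein SPARC (3.82). The 11 not called included serpins such as Spn42Dc (-0.99, SE 0.41) and Spn55B (-0.39, SE 0.21). Of 69 tetraspanins and multispanning transporters, 47 were higher and 0 lower (median 1.58), with Serinc at 4.26, the ABC transporter MRP at 3.87 and the ER calcium pump SERCA at 3.5. That list was matched by symbol and took in ZIPIC, a zinc finger protein of the nucleus, which was at -0.16 and not called.

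Detoxification enzymes differed by family. Of 115 annotated cytochrome P450, UDP-glycosyltransferase and related genes, only 44 passed the brightness filter. Of these 44, 27 were higher in the nucleus and 0 lower (median 1.45). That median ranged from 0.43 to 2.44 over all alternatives. Of 28 tested glutathione transferases 0 were higher and 19 lower (median -1.26). The glycosyltransferase gene Ugt302C1 gave 20787, 19640 and 24372 against 1063, 1126 and 1014 (4.18, SE 0.28). Cyp6a20 gave 18174, 20048 and 24987 against 1496, 1840 and 1804 (3.57, SE 0.26), and Jheh2, an epoxide hydrolase of the ER, was at 4.06. Opposite to these, GstE8 gave 1945, 1100 and 1365 against 8748, 9312 and 7609 (-2.45, SE 0.24) and GstD3 was at -1.96. The Cyp12 family, whose enzymes reside in mitochondria, was set apart after its values were seen. Of its 6 tested members 1 was called higher, Cyp12a5 (1.16, a call lost in 8 of 23 alternatives), and the median of -0.05 changed sign with the scaling (0.24 as deposited). The 29 tested of 75 annotated members of other P450 families had a median of 1.46, with 18 higher.

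Genes of nuclear proteins lay mostly on the cytoplasmic side. Of 51 transcription factors and chromatin proteins, 2 were higher and 31 lower (median -0.74). The elongation factor gene spt4 was at -2.42 (SE 0.43) and Snr1 of the Brahma remodelling complex at -2.05. The stress factor crc gave 9136, 8821 and 10702 in the nucleus against 35099, 34694 and 34027 (-1.91, SE 0.12). The 2 called higher were Taf4 (0.75) and CycT (0.65), calls lost in 7 and 11 of 24 alternatives, and of the 31 lower calls 16 held in every one. Mediator, the bridge between activators and RNA polymerase II, had 0 of 24 subunits higher and 11 lower (median -0.82), led by MED28 (-3.15, SE 0.39) and MED20 (-2.76). Of its 11 lower calls 6 held in every alternative. Of 25 polymerase subunits and RNA processing enzymes, 0 were higher and 16 lower (median -1.1), with the exosome subunit Mtr3 at -2.27 and Polr2E at -1.63.

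At the nuclear envelope the members went both ways. Of 37 pore, lamina and transport genes, 5 were higher and 18 lower (median -0.55). All 5 higher calls held in every alternative, against 9 of the 18 lower ones. The 4 multispanning or long-anchored proteins Ndc1, MAN1, LBR and koi, grouped after their values were seen, were all higher. Ndc1, which holds the pore in the membrane, gave 5552, 6023 and 6024 against 408, 321 and 436 (3.55, SE 0.37), and LBR, the lamin B receptor, 4061, 5505 and 3969 against 1073, 1171 and 487 (2.31, SE 0.24). MAN1 was at 2.6 and the SUN-domain protein koi at 1.65. Ote and bocks, which carry a LEM domain as MAN1 does but a single anchor at their C-terminal end, were lower, at -1.11 and -1.45. Of 29 soluble nucleoporins and transport factors 15 were lower and 1 higher, with Nup107 at -2.35 and Ran at -1.44. The 1 called higher was Fs(2)Ket, the importin beta gene, with 3857, 3141 and 3739 against 1237, 1282 and 1259 (1.54, SE 0.17, adjusted p = 9.24e-07), and its second probe set was at 1.96.

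The genes closest to U2AF in function were mostly lower in the nucleus. Early splicing factors had 19 of 24 lower, and the 1 called higher was U2af50 itself (median -1.22). The SF3b subunits Sf3b5 (361, 449 and 455 against 2415, 2169 and 2607, difference -2.36, SE 0.24) and Sf3b6 (-2.2) and the Sm protein SmD2 (-1.87) were the furthest out. SF1, which binds the branch point together with U2AF, was at -0.3 (SE 0.21) and did not pass, and neither did Prp8 (-0.05). SR and hnRNP proteins had 12 of 17 lower and 0 higher (median -1.06), led by Hrb27C (-1.8) and tra2 (-1.63). Of 22 export and exon junction genes 12 were lower and 0 higher (median -0.92). The exon junction gene tsu gave 1003, 1333 and 1436 against 4591, 5034 and 5402 (-1.89, SE 0.24).

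Genes without introns do not need U2AF to be spliced. Of 17 annotated intronless heat shock, E(spl), Jun and proneural genes, 8 were tested, 0 were higher and 2 lower (median -0.53). These were Hsp27 (873, 654 and 1022 against 1640, 1640 and 1930, difference -0.99, SE 0.3) and Jra, the fly Jun (-0.95, SE 0.26). The other 6 lay between -0.92 (E(spl)m7-HLH) and 0.51 (Hsp26) and their fractions overlapped after normalisation. The median of the 8 tested genes (-0.53) lay below the -0.31 of all genes, and it ranged from -0.83 to -0.05 over all alternatives.

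The translation machinery divided into parts. Of 27 translation factors 0 were higher and 25 lower (median -1.25), led by eIF1 (5364, 5343 and 5629 against 23152, 25342 and 26318, difference -2.23, SE 0.12). Of 18 cytosolic aminoacyl-tRNA synthetases 15 were lower (median -1.03), and GlnRS alone was higher, at 7814, 6421 and 6945 against 2430, 1781 and 2823 (1.75, SE 0.2, adjusted p = 1.18e-06). The GlnRS call held in all 24 alternatives. Cytosolic ribosomal proteins were the least uniform, with 5 of 33 higher, 16 lower and a median of -0.27, close to that of all genes. RpL28 (1.54, SE 0.22), RpL17 (1.08), RpL39 (0.84), RpS26 (0.84) and RpL32 (0.46, lost in 10 of 24 alternatives) were higher, and RpS29 (-1.76) and RpS12 (-1.35) were lower. Of the 16 lower calls 7 held in every alternative, and that of RpL40 (-0.41) was lost in 14 of 24. The list, matched by symbol, also held RpL24-like (-0.98) and RpLP0-like (-1.45), whose relatives in yeast act in ribosome assembly.

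Among nuclear-encoded proteins of the mitochondrion, those of the ribosome and the respiratory complexes were mostly lower in the nucleus. Of 66 mitochondrial ribosomal proteins 56 were lower and 0 higher (median -1.25). Complex I had 23 of 29 lower (median -1.09), succinate dehydrogenase with complexes III and IV 19 of 20 (median -1.43) and ATP synthase 12 of 14 (median -1.3), with 0 higher in each. COX7A gave 3342, 3581 and 5317 against 14200, 15950 and 13552 (-1.89, SE 0.16), and the ATP synthase subunit gene ATPsynC, a membrane protein, was at -1.48 with a second probe set at -0.56, not called. Of 26 import proteins and carriers, most of them multispanning, 11 were lower, 0 higher and 15 not called (median -0.57). Mpcp2, the phosphate carrier, was at -1.98 and sesB, which exchanges ADP for ATP, at -1.53. RNAs encoded by the mitochondrial genome had no annotated probe set.

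Central metabolism and the cell cycle followed the cytosolic pattern. Of 20 enzymes of the TCA cycle and glycolysis 16 were lower and 1 higher (median -1.13). Eno, the enolase, gave 4932, 5281 and 4819 against 20951, 20732 and 18415 (-2.04, SE 0.12) and Ald1, the aldolase, was at -2. The 1 higher was CG5214 (0.77), a call lost in 13 of 24 alternatives. Of the 16 lower, 14 kept their call throughout, and Scsalpha1 (-0.46) and Ogdh (-0.74) lost it in 14 and 5 of 24. Cell cycle and replication genes had 28 of 41 lower and 0 higher (median -1.06), and 13 of the 28 calls held in every alternative. Mcm10 was at -2.85 (SE 0.39) and RfC38 at -2.27, while Cdk2 (0.77, SE 0.32) was not called. Among microtubule genes 16 of 22 were lower and 0 higher (median -1.09), with the augmin subunit msd5 at -2.2.

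Immune effectors were mixed. Of 13 tested antimicrobial peptides and recognition proteins 7 were higher and 3 lower (median 0.63). The recognition protein GNBP3 gave 4244, 4207 and 5482 against 46, 265 and 203 (4.12, SE 0.39). The antimicrobial peptides DptB and AttD went apart. DptB, the diptericin B gene, gave 130593, 98969 and 83594 in the nucleus against 7322, 8243 and 8931 in the cytoplasm (3.58, SE 0.13, adjusted p = 1.29e-12). AttD, an attacin, gave 6449, 7674 and 6478 against 13730, 14909 and 15628 (-1.13, SE 0.16, adjusted p = 2.12e-05). Mtk, the metchnikowin gene, was at -0.64 (SE 0.18), and Drs, the drosomycin gene, at 0.63 (SE 0.16), a call lost when arrays were centred on their medians.

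Of 29 annotated noncoding RNAs 13 were tested, with 4 higher in the nucleus and 0 lower. Their median was 0.36, and 0.02 with the GAPDH ratio in the fit. Of the 4 higher calls 1 held in every alternative. lncRNA:CR42862 gave 12449, 9716 and 10620 against 395, 429 and 485 (4.23, SE 0.18), and asRNA:CR43468 was at 1.17 (SE 0.27). lncRNA:CR32218 (0.93) and lncRNA:CR14310 (0.66) were the others, with calls lost in 12 of 23 and 7 of 24 alternatives. Strand is fixed by the probes, whose sequences were not used here. The remaining 9 lay between 0.11 and 0.59 and were not called.

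Whether any of this was particular to depleted cells was addressed by the interaction, the nucleus to cytoplasm difference in depleted cells minus that in control cells. It passed for 14 of 8379 probe sets (0.167%), 6 with a larger and 8 with a smaller ratio in depleted cells, while 1091 had an unadjusted p under 0.05. The smaller ratios numbered 25 on the deposited scale, 173 after centring on array medians and 0 with the GAPDH ratio in the fit, and the larger ones 10, 10 and 3. In control cells the GAPDH ratio was 7.91, 4.47 and 3.89 in the cytoplasm and 7.58, 4.25 and 6.91 in the nucleus, and of the 6 control measures only the 18S rRNA signal did not overlap between the control fractions. The part in the interaction of this imbalance, which was seen in depleted cells, was not tested beyond that fit. The count ranged from 3 to 30 for larger and from 0 to 53 for smaller ratios when single arrays were left out, the most without control cytoplasmic array 3 and 0 smaller without control nuclear array 1. Among the gene groups above, the interaction passed for 1 member each of the ER chaperones (Sil1), early splicing factors (U2af50), cytosolic ribosomal proteins (RpL28), translation factors (eIF6) and noncoding RNAs (lncRNA:CR42862), and for 0 members of every other group. Of 52 groups with a median, 51 had it on the same side of 0 in control and depleted cells. The exception was the antimicrobial peptides taken alone, a group formed after its values were seen (-0.11 in control, 0.39 in depleted cells). The medians lay furthest apart for the lipid synthesis enzymes, at 3.14 in control and 1.86 in depleted cells, and those of the ER chaperones were 3.53 and 3.11. Taken gene by gene, the median interaction was -0.86 for the lipid synthesis enzymes. In the other groups it ran from -0.55 (lysosomal proteins) to 0.39 (ATP synthase subunits). None of these group values was tested.

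The largest increase of the ratio in depleted cells was that of RpL28, a protein of the large ribosomal subunit (interaction 2.34, SE 0.31, adjusted p = 0.0031). Its intensities were 6773, 12439 and 8052 in the depleted cytoplasm and 30856, 24780 and 24626 in the depleted nucleus, against 48290, 28190 and 60395 and 22545, 26133 and 26266 in control cells. The depleted cytoplasm thus lay below all other groups, and the nuclear values of both treatments overlapped. For eIF6, a factor that binds the large ribosomal subunit, the interaction was 2.29 (SE 0.3, adjusted p = 0.0031). The nuclear intensities of eIF6 were 2931, 2105 and 2813 in depleted against 297, 332 and 168 in control cells, and the cytoplasmic ones 7223, 5381 and 6913 against 3522, 3974 and 3679. A second probe set of eIF6 differed by 0.56 (SE 0.49) between the fractions of depleted cells and was not called, unlike the first (-1.16).

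CG15784 gave 61106, 63363 and 45735 in the cytoplasm and 64575, 69023 and 63833 in the nucleus of depleted cells, fractions that lay next to each other on the deposited scale and overlapped after normalisation, where control cells had 23536, 26228 and 22137 against 8635, 11343 and 9101 (interaction 1.46, SE 0.2, adjusted p = 0.0031). Both fractions of depleted cells lay above both of control cells. For U2af50 the interaction was 1.96 (SE 0.37, adjusted p = 0.0375), lost in 14 of 23 alternatives, and for CG14903 it was 1.36 (adjusted p = 0.0309). The interaction of eIF6 passed in all 23 alternatives, and those of RpL28 and CG15784 in all but 1.

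A smaller ratio in depleted cells was found mostly among genes with a large nuclear excess. All 8 of these calls were lost with the GAPDH ratio in the fit, and all 8 without control nuclear array 1. lncRNA:CR42862 fell from 5.68 in control to 4.23 in depleted cells (interaction -1.45, SE 0.26, adjusted p = 0.0306), with 33456, 29497 and 33354 in the control nucleus. Swim, a secreted protein that carries Wingless, fell from 4.88 to 3.65, the ER co-chaperone Sil1 from 4.5 to 2.8 and the secreted growth factor miple2 from 4.59 to 2.89. For Sil1 the depleted cytoplasm (970, 1488 and 1342) lay above the control cytoplasm (642, 333 and 416). CG3164 fell from 3.99 to 1.84. CG8026 was the only gene with 1 symbol among the 8 that had a cytoplasmic excess in depleted cells (0.23 in control, -1.72 in depleted cells), with 541, 415 and 518 in the nucleus against 1638, 1632 and 1764 in the control nucleus. Just outside the threshold were the filamin cher (-1.17, adjusted p = 0.0515) and qkr54B (-1.6, adjusted p = 0.0511) with smaller ratios, and CG13919 (1.15, adjusted p = 0.0571), ND-MWFE (1.02, adjusted p = 0.0571) and RhoL (2.01, adjusted p = 0.0678) with larger ones, which complete the 8 named genes of smallest p in each direction. Beyond these 8, smaller ratios of similar p among the listed genes were those of Agpat3 (-1.74, adjusted p = 0.0527), Tsp96F (-1.45, adjusted p = 0.0527), Ostgamma (-1.85, adjusted p = 0.0571), Sirup (-1.06, adjusted p = 0.0571) and spz (-1.05, adjusted p = 0.0658).

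**Figure D5:**
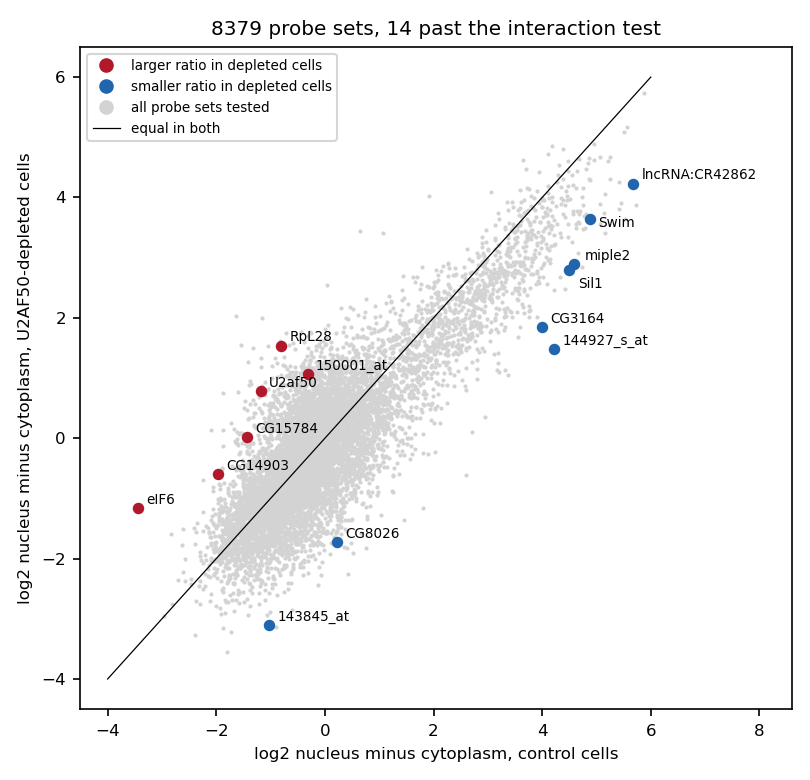
Log2 difference of nucleus minus cytoplasm in control cells (horizontal) and in depleted cells (vertical) for 8379 probe sets in grey, with the line of equal differences. Coloured points are the 14 probe sets past the interaction test, such as eIF6 at -3.45 in control and -1.16 in depleted cells and lncRNA:CR42862 at 5.68 and 4.23.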

How the data were processed

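RNA from nuclear and cytoplasmic fractions was measured on 1-colour Affymetrix fly arrays. The authors deposited linear intensities, already scaled to a common level, as read from the values: the trimmed mean was about 1000 on every array. No source used here names the software or the probe summary. Intensities were turned into log2(value + 94.7), the 20th percentile of all deposited values, and quantile normalised over 12 arrays, because array medians differed. Of 14010 probe sets, 44 controls were left out, and those above the 40th percentile of mean intensity were tested.

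limma 3.58.1 in R 4.3.3 (lmFit, eBayes with an intensity trend, 8 residual and 8.95 prior degrees of freedom) was fitted to 4 group means, with Benjamini-Hochberg adjustment over all 8379 probe sets and a threshold of 0.05. In the platform annotation 12444 probe sets carried 1 symbol, 327 carried several and 1239 carried none, and 12394 matched current fly gene names. Of 497 genes with several probe sets, 287 had a call, 195 of these not in all probe sets, and 6 were called in both directions.

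Named genes were the 15 with the largest called difference in each direction, bright and without overlap, the leading and contrasting members of each list, the genes of smallest interaction p, U2af50 and U2af38. Members and the 45 lists were chosen with earlier results of these data known, and the Cyp12, antimicrobial peptide, nuclear anchor and soluble pore groups after their values were seen. Alternatives changed the scaling, offset, filter, arrays, prior, weights and a GAPDH term, or left out each array. The precision is limited by the number of arrays. Protein, exon and probe sequences were not analysed here.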

Additional observations from a re-analysis of the deposited data

Results flagged for a closer look

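The nucleus to cytoplasm ratio differed between depleted and control cells for 14 probe sets by the interaction test, and these values are on the log2 scale, depleted minus control. Smaller ratios in depleted cells were those of CG3164 (-2.15), CG8026 (-1.95), miple2 (-1.7), Sil1 (-1.7), lncRNA:CR42862 (-1.45), Swim (-1.23) and of 2 probe sets without a single gene symbol (-2.75 and -2.07). None of these smaller ratios passed with the GAPDH ratio in the fit or without control nuclear array 1. Larger ratios were those of RpL28 (2.34), eIF6 (2.29), U2af50 (1.96), CG15784 (1.46), CG14903 (1.36) and of 1 probe set without a single gene symbol (1.39).

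In RpL28 the depleted cytoplasm stood below the other 3 groups, in eIF6 the control nucleus stood below the others, and in CG15784 both depleted fractions stood above both control fractions. The unnamed probe set at -2.07 gave 317, 484 and 331 in the depleted nucleus against 3339, 3484 and 4196 in the depleted cytoplasm, where the control nucleus had 1730, 1216 and 1342. No group tested here held 4 or more arrays, so single arrays were not screened as outliers.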

How the results depend on the processing

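The counts of probe sets higher and lower in the nucleus stayed within 1.5 times of 1503 and 2585 in all 24 alternatives but 1, the fit with the GAPDH ratio, which called 1611 lower. Leaving out single arrays gave 1330 to 1570 higher and 2092 to 2676 lower. The share of calls that were higher was 36.8%, against 41.3% for the deposited scale, 28% after centring on array medians (1297 higher, 3341 lower) and 42.1% with the GAPDH ratio, and the median of all probe sets was -0.29, -0.15, -0.52 and -0.28. Of 787 listed or named genes with a call, 595 kept it throughout, 67 lost it only with the GAPDH ratio, 112 lost it without at least 1 array, and 0 changed sign. List medians kept their sign except that of the Cyp12 family.

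The interaction counts moved more. Larger ratios numbered 6, against 10 with values as deposited, 10 with array medians, 1 without the intensity trend and 3 with the GAPDH ratio. Smaller ratios numbered 8, against 25 as deposited, 173 with array medians, 20 with quantiles within fractions, 17 with the larger offset, 17 with the stricter filter, 3 without a filter, 4 without the trend, 19 with array weights and 0 with the GAPDH ratio. Leaving out single arrays gave 3 to 30 and 0 to 53. The cause was not tested. With the replicate number as a block, the counts were 1458 higher, 2498 lower, and 5 and 5 in the interaction. The labels do not say whether the numbers pair samples. Deviations of same-numbered arrays correlated by -0.089 to 0.057, and those of differently numbered arrays by -0.119 to 0.116. With 3 arrays per group these values cannot decide whether the fractions were paired. The 3 arrays per group, and dim probe sets near the offset, limit what could be called.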
